A study of Mus musculus with 24 samples.

Results

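The expression of 10 genes of Notch signalling was followed in mouse hippocampus, out of 21793 genes measured. They are the receptor genes Notch1, Notch2, Notch3 and Notch4, the ligand genes Dll1, Jag1 and Jag2, and the target genes Hes1, Hes5 and Hey1. The list was chosen by the measured values of the control-diet groups, in which Notch1 had been called lower in transgenic mice. That comparison is described here, and its p-values describe the selection and are no test of it. All 10 genes passed the filter on low values, which kept 14162 genes.

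RNA was taken from 24 females, of which 12 were 3xTg-AD mice (3xTg) and 12 were B6129SF2/J mice (WT). The 3xTg line is a model of Alzheimer's disease that is known to carry, among its alterations, human APP and MAPT transgenes driven by the neuronal Thy1 promoter; WT mice carry neither. The mice were 3 months old when they were given 1 of 3 diets, which they ate for 6 months. The ketogenic diet (K) had 90% long-chain triglycerides, 10% protein and no carbohydrate, at 6.7 kcal/g, and was eaten by 5 3xTg mice (3xTg K) and 4 WT mice (WT K). The MCT diet (M) had 70% carbohydrate, 10% protein, 10% long-chain and 10% medium-chain triglycerides, at 4.1 kcal/g, and was eaten by 4 3xTg mice (3xTg M) and 4 WT mice (WT M). The control diet (C) had 70% carbohydrate, 10% protein and 20% long-chain triglycerides, at 4.1 kcal/g, and was eaten by 3 3xTg mice (3xTg C) and 4 WT mice (WT C). Each library stands for 1 hippocampus of 1 mouse, as far as the labels say.

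Notch receptors are single-pass membrane proteins that are switched on by ligands of the Delta and Jagged families on a neighbouring cell. Ligand binding exposes the receptor to a metalloprotease and then to gamma-secretase, and the freed intracellular domain joins RBPJ and a Mastermind coactivator on DNA to switch on Hes and Hey repressor genes. In the adult hippocampus Notch activity is known for keeping stem cells of the dentate gyrus undifferentiated, and Notch receptors also act in astrocytes, neurons, and the endothelium and smooth muscle of vessels.

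The promoters of Notch1 and Hes5 are shown because these are the receptor that defined the list and the target with the largest difference on the other diets. Both are RefSeq windows on GRCm38.p6, from 250 bases before to 50 bases after the annotated start, read 5′ to 3′ along the gene. The Notch1 window lies within the span of the gene in the GENCODE annotation (26457903 to 26516663), downstream of the start given there. Capitals mark TGGGAA, the core sequence bound by RBPJ, or its reverse complement TTCCCA.
Notch1, chr2:26503773-26504072, minus strand: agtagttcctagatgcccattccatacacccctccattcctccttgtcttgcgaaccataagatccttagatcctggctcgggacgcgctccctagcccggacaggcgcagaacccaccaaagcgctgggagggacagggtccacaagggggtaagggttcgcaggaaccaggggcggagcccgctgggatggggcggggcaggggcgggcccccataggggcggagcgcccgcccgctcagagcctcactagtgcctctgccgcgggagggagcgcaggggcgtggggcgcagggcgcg
Hes5, chr4:154960673-154960972, plus strand: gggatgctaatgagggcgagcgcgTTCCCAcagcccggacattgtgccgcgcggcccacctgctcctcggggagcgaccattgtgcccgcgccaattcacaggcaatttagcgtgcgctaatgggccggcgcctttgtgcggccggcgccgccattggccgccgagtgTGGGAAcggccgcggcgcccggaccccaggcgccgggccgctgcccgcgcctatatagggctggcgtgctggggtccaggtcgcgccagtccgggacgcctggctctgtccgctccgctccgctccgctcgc
The Hes5 window held 2 matches, 1 on each strand, and the Notch1 window held 0. The same search, on both strands, found TGGGAA in 25.6% of 32851 mouse promoter windows of this length, so a match is a description of the letters and no evidence of binding. By symbol, 8 of 10 members were matched to a RefSeq window (Dll1 to 2), and the windows of Notch2, Notch3, Notch4, Dll1, Jag1 and Jag2 held 0 matches to TGGGAA. Hes1 and Hey1 were not matched. CACNAG, the N-box that Hes proteins bind, had 3 matches over both strands in the Notch1 window, of which 2 overlap on opposite strands. The Hes5 window held 0, and 42.5% of all windows held at least 1.

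Values are the authors' normalised counts, that is reads divided by 1 factor per library. Reads on genes numbered 10078435 to 25810846 per library, except for 2653427 in the library 3xTg K 2. Thy1, which stands in for the transgenes, ran from 20385 to 29277 in 10 libraries labelled 3xTg and from 6952 to 8137 in 11 labelled WT. The library labelled 3xTg K 1 had 8112, the library labelled 3xTg C 3 had 9189 and the library labelled WT M 2 had 23048; these 3 values go against the labels. Values below follow the labels of all 24 libraries, and where a call of a named gene changes without these 3 the value for the other 21 is given beside it. The tissue carried the markers of its main cell types in every library: the sum over 8 neuronal genes lay between 123470 and 149600 normalised counts. These are whole-tissue samples, so fewer cells of a type and less RNA per cell cannot be told apart.

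Levels were compared between genes per kilobase of exon. Hey1, a repressor gene of the Hairy/E(spl) family known from vessels and neural progenitors, was highest with 183 ± 11.2 normalised counts per kb (mean ± SD over 24 libraries). Hes1, the more widely expressed Hes repressor, followed with 89.3 ± 12.5. Next came Jag2 with 46.9 ± 3.98, Notch2 with 44.3 ± 5.05, Hes5 with 37.3 ± 13.8, Jag1 with 34.3 ± 4.57 and Notch1 with 33.02 ± 3.36. Within these 5 genes, neighbours in the order differed by less than their spread. Dll1 had 21.9 ± 3.57, and Notch3 and Notch4, the receptors known from mural and endothelial cells, were lowest with 11.6 ± 1.56 and 9.68 ± 2.14. The steps between Hey1 and Hes1, Hes1 and Jag2, Notch1 and Dll1, and Dll1 and Notch3 exceeded the SDs on both sides.

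**Figure D1:**
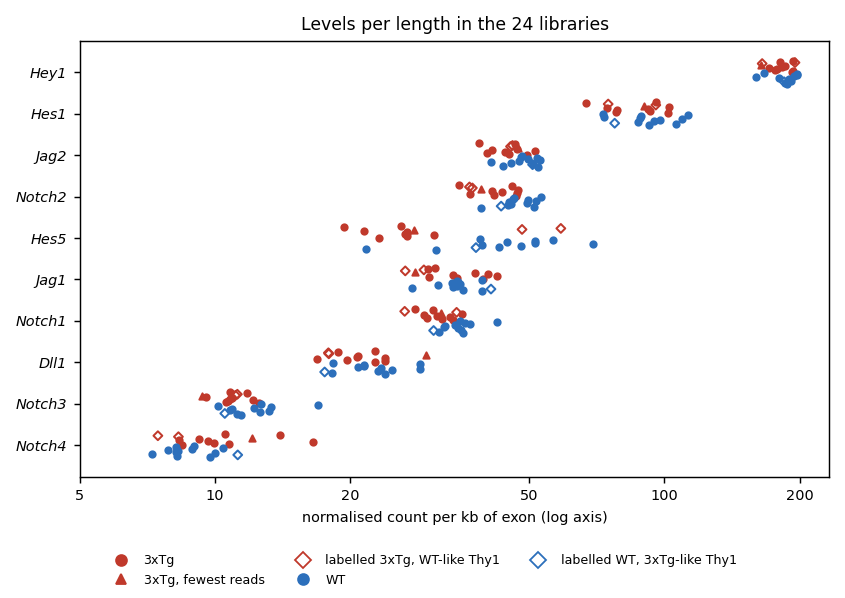
Level of each gene in each of the 24 libraries, as normalised count per kb of exon on a log axis, 3xTg libraries above WT libraries within a gene. Hey1 (183 on average) lies apart at the top and Notch3 (11.6) and Notch4 (9.68) at the bottom; Hes5 has the widest relative spread (37.3 ± 13.8).

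The receptor that defined the list, Notch1 (ENSMUSG00000026923, chromosome 2, 26457903 to 26516663, minus strand), had normalised counts of 396, 434 and 376 in the 3xTg C libraries, against 498, 604, 512 and 526 in the WT C libraries. The groups did not overlap, and the library labelled 3xTg C 3 was the lowest of all 24 although its Thy1 was WT-like. The means were 402 ± 29.7 (SD, n = 3) in 3xTg C and 535 ± 47.2 (n = 4) in WT C, a log2 difference of -0.41 ± 0.08 (SE). The call that selected the gene had an adjusted p of 0.0498 in limma against a threshold of 0.05, and 8 of 14162 genes (0.0565%) were called in that comparison. The nearest member outside the threshold was Notch2, with a log2 difference of -0.32 ± 0.10 and an adjusted p of 0.173. The selecting call held in 14 of 37 alternative settings, with adjusted p from 0.00236 (DESeq2 on the recovered reads) to 0.491 (without the library 3xTg C 1), while the difference itself stayed between -0.47 and -0.35. With the replicate block the adjusted p was 0.102, with the 2 groups alone 0.212, and leaving out any 1 of the WT C libraries gave 0.0654 to 0.185. With 21 libraries the adjusted p of Notch1 was 0.0351, and 2 of 10 members passed the threshold, Notch1 and Hes5, where 1.74% of genes did. These values describe the selection and support nothing further.

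On the diets that the selection did not use, Notch1 did not separate the genotypes. In the ketogenic groups it had 490.4, 454, 505, 415 and 443 normalised counts in 3xTg K, against 487, 461, 459 and 495 in WT K. In the MCT groups it had 474, 422, 454 and 481 in 3xTg M, against 503, 436, 448 and 506 in WT M. The ranges overlapped on both diets. The log2 difference, 3xTg minus WT, was -0.05 ± 0.07 on the ketogenic diet (limma adjusted p = 0.803), -0.05 ± 0.07 on the MCT diet (adjusted p = 0.967) and -0.05 ± 0.05 averaged over both (adjusted p = 0.693). The 95% interval of the average ran from -0.15 to 0.06. Over all 37 alternative settings the average stayed between -0.08 and -0.03, with adjusted p from 0.435 to 0.872.

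Set against control, the signs of the Notch1 differences were opposite in the 2 genotypes. In 3xTg it was 0.20 ± 0.08 higher on the log2 scale with the ketogenic diet (adjusted p = 0.724) and 0.19 ± 0.08 higher with MCT (adjusted p = 0.999). In WT it was -0.17 ± 0.07 with the ketogenic diet (adjusted p = 0.983) and -0.18 ± 0.07 with MCT (adjusted p = 0.989). None of these passed, and they use the same control libraries in which Notch1 was selected for being low in 3xTg and high in WT. Between these 2 diets, with no control library involved, the difference ketogenic minus MCT was 0.01 ± 0.07 in 3xTg and 0.01 ± 0.07 in WT.

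**Figure D2:**
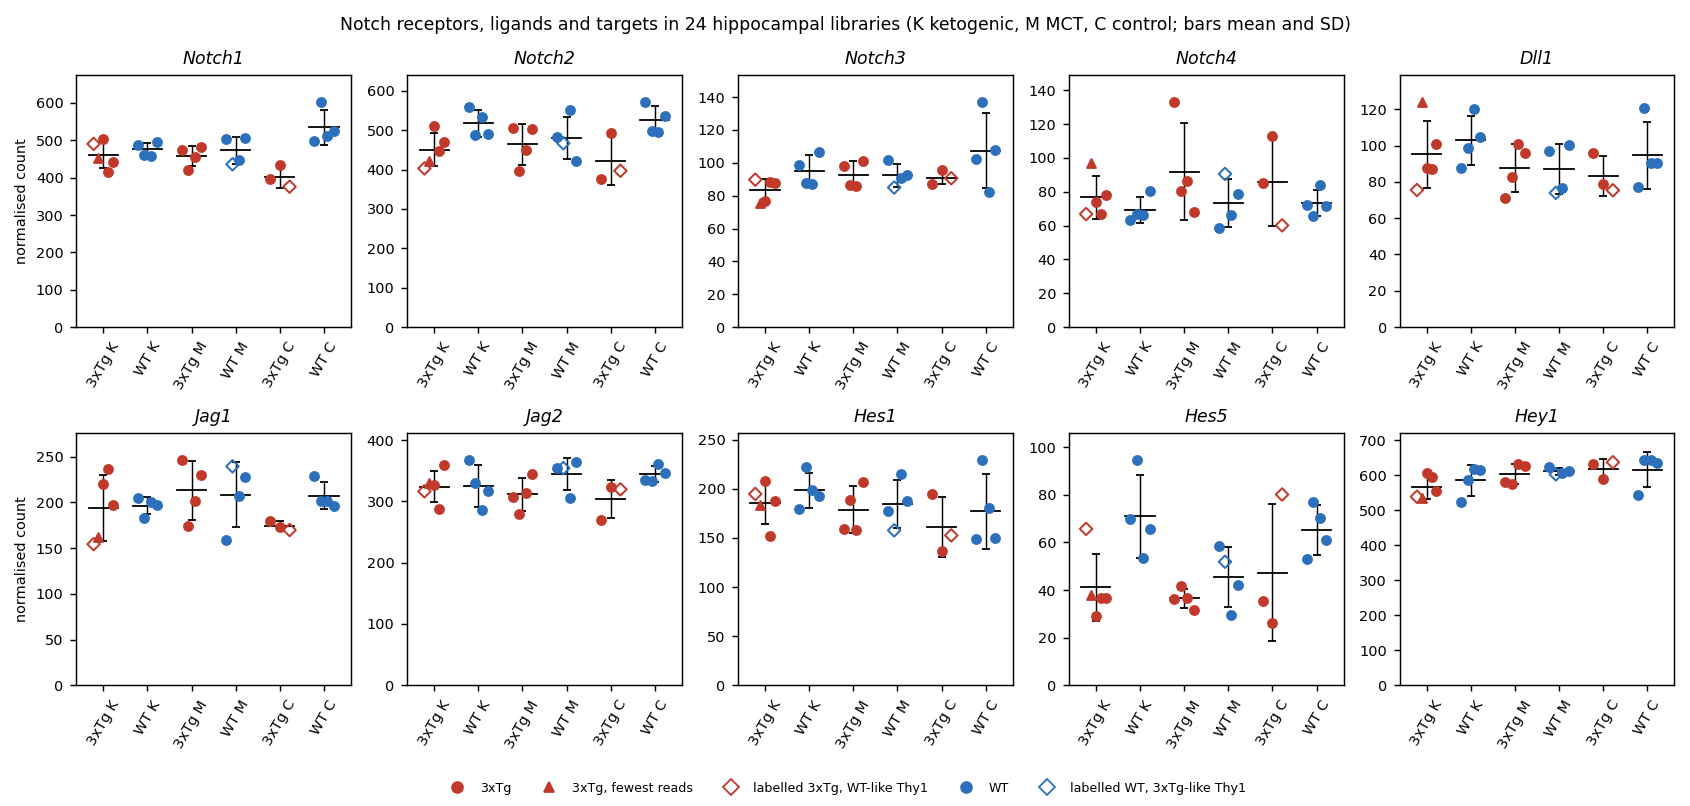
Normalised counts of the 10 genes in each library by group (K ketogenic, M MCT, C control), with the mean and SD as a bar; triangles mark the shallowest library and open diamonds the 3 libraries whose Thy1 goes against their label. Notch1 is lowest in 3xTg C (376 to 434) and highest in WT C (498 to 604), while Hes5 lies between 26.3 and 41.8 in 10 of the 3xTg libraries.

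In the control-diet comparison, gene length moved with the difference. With genes in 4 classes of exonic length, the median log2 difference was 0.06 in the shortest class, 0.01 and -0.02 in the next ones, and -0.05 in the longest (at least 7295 bases), where Notch1 lies with 14232 exonic bases. On the ketogenic diet these medians ran from -0.02 in the shortest to 0.01 in the longest class, and on MCT from 0.00 to 0.01. Markers of other cells differed there too. Oligodendrocyte markers were higher in 3xTg C for 8 of 8 genes (median log2 difference 0.28, none called), and their sum was 71739 to 81701 normalised counts in 3xTg C against 51443 to 68685 in WT C. Microglial markers were higher for 8 of 8 (median 0.17, none called), with sums of 5487.5 to 6020.1 in 3xTg C against 4539.5 to 5389.5 in WT C. Endothelial markers were lower for 6 of 8 (median -0.37, none called), with sums of 2627 to 3118 in 3xTg C against 3141 to 3445 in WT C. In each of these lists the sums of the groups did not overlap. Astrocyte markers were higher in 3xTg C for 8 of 9 genes (median 0.15, none called). Their sums were 96508 to 102500 in 3xTg C against 92381 to 96012 in WT C. Dentate granule markers were lower for 6 of 8 (median -0.19, none called). Their sums were 8742 to 9023 in 3xTg C against 9831 to 10843 in WT C. These sums did not overlap either. The sums of neurons, oligodendrocyte precursors, mural cells, radial glia and progenitors, choroid plexus, meningeal fibroblasts and ependyma did overlap. These are descriptions of 3 against 4 libraries. On the ketogenic and MCT diets, endothelial markers were lower in 3xTg for 7 of 8 genes each (medians -0.23 and -0.17). Dentate granule markers were lower for 6 of 8 on each (medians -0.41 and -0.27). Oligodendrocyte markers were higher for 3 of 8 and 7 of 8, microglial for 5 of 8 and 6 of 8, astrocyte for 5 of 9 and 3 of 9. Across the 24 libraries, Notch1 correlated with the summed level at r = -0.549 for oligodendrocytes, -0.542 for microglia and 0.389 for endothelium. For astrocytes r was -0.259 and for dentate granule cells 0.226. These values describe libraries that share their groups. Choroid plexus markers were lower in 3xTg C for 6 of 6 genes (median -0.99, none called). Their sum reached 23194 in 1 WT C library, but the WT C median of 3272 lay within the 3129 to 3728 of 3xTg C. Enpp2, with a mean of 3059 normalised counts over the 24 libraries, weighs most in this sum. Meningeal fibroblast markers were lower for 6 of 7 (median -0.49, none called). On the ketogenic diet these lists were lower in 3xTg for 6 of 6 and 6 of 7 genes, and on MCT higher for 5 of 6 and 6 of 7. The part of length and of these cells in the Notch1 difference was not tested.

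Notch2, the receptor gene most like Notch1 in structure, had the largest receptor difference on the ketogenic diet. It averaged 449.8 ± 41.8 (SD, n = 5) in 3xTg K and 517 ± 34.7 (n = 4) in WT K, 464 ± 51.3 in 3xTg M and 480.4 ± 53.9 in WT M (n = 4 each), and 422 ± 62.2 (n = 3) in 3xTg C and 526 ± 36.3 (n = 4) in WT C. It was lower on average in 3xTg on all 3 diets, with overlapping ranges on the ketogenic and MCT diets. The log2 difference was -0.20 ± 0.09 on the ketogenic diet (adjusted p = 0.295), -0.05 ± 0.10 on MCT (adjusted p = 0.974) and -0.13 ± 0.07 averaged over both (adjusted p = 0.316).

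Notch3, the receptor of vascular smooth muscle and pericytes, averaged 83.6 ± 6.73 in 3xTg K and 95.2 ± 9.32 in WT K, 92.9 ± 8.07 in 3xTg M and 92.5 ± 7.05 in WT M, and 91.0 ± 4.16 in 3xTg C and 107 ± 22.8 in WT C. Its averaged difference was -0.09 ± 0.09 (adjusted p = 0.637). Notch4, an endothelial receptor, averaged 76.6 ± 12.5 in 3xTg K and 69.1 ± 7.69 in WT K, 91.9 ± 28.6 in 3xTg M and 73.4 ± 14.1 in WT M, and 85.9 ± 26.3 in 3xTg C and 73.5 ± 7.66 in WT C. It was the only receptor whose mean was higher in 3xTg on all 3 diets, but the difference averaged over the ketogenic and MCT diets, 0.22 ± 0.13, had an adjusted p of 0.404, and 0.174 without the 3 discordant libraries. On MCT, the difference of 0.29 ± 0.19 became 0.10 without the library 3xTg M 1, which held 133 normalised counts, and the average became 0.12. The endothelial marker list moved the other way: 7 of its 8 genes were lower in 3xTg in the average, with a median of -0.20 and none called, and its summed level was 2593 to 3242 in 3xTg K against 2968 to 3556 in WT K. The part of endothelial RNA in the Notch4 values was not tested.

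None of the 3 ligand genes was called between genotypes. Dll1, a Delta ligand made by newly committed neuronal cells, averaged 95.1 ± 18.6 in 3xTg K and 103 ± 13.6 in WT K, 87.7 ± 13.3 in 3xTg M and 87.1 ± 13.6 in WT M, and 83.4 ± 11.0 in 3xTg C and 94.7 ± 18.4 in WT C. Jag1, a Jagged ligand of glia, vessels and neurons, averaged 194 ± 35.7 in 3xTg K and 196 ± 9.59 in WT K, 213 ± 31.9 in 3xTg M and 209 ± 35.4 in WT M, and 174 ± 4.99 in 3xTg C and 207 ± 14.9 in WT C. Jag2, its paralogue, averaged 324 ± 25.6 in 3xTg K and 325 ± 33.8 in WT K, 311 ± 26.4 in 3xTg M and 345 ± 26.7 in WT M, and 304 ± 30.4 in 3xTg C and 344 ± 13.1 in WT C. The averaged log2 differences, 3xTg minus WT on the ketogenic and MCT diets, were -0.06 ± 0.11 for Dll1 (95% interval -0.28 to 0.17, adjusted p = 0.849), 0.00 ± 0.09 for Jag1 (-0.19 to 0.19, adjusted p = 0.999) and -0.08 ± 0.06 for Jag2 (-0.20 to 0.05, adjusted p = 0.545). The interval is narrowest for Jag2 and widest for Dll1, whose counts were the lowest of the 3.

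Among the targets, Hes5 differed most. Hes5 (ENSMUSG00000048001, chromosome 4, 154960923 to 154962371, plus strand) encodes a repressor that marks Notch-active neural stem cells and astrocytes. In the ketogenic groups it had 65.7, 37.8, 29.2, 36.5 and 36.5 normalised counts in 3xTg K, against 70.0, 94.7, 53.4 and 65.4 in WT K. In the MCT groups it had 36.0, 41.8, 36.5 and 31.6 in 3xTg M, against 58.3, 51.9, 29.5 and 42.2 in WT M. In the control groups it had 35.3, 26.3 and 80.1 in 3xTg C, against 52.9, 77.0, 70.1 and 60.9 in WT C. The 2 high 3xTg values, 65.7 and 80.1, belong to the libraries labelled 3xTg K 1 and 3xTg C 3, the 2 with WT-like Thy1. The 10 other 3xTg libraries lay between 26.3 and 41.8 (mean 34.8 ± 4.47), against 29.5 to 94.7 in the 11 WT libraries with WT-like Thy1 (61.3 ± 17.5), where WT M 3 was the lowest and WT M 4 (42.2) the next.

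With all 24 libraries Hes5 did not pass. The log2 difference was -0.79 ± 0.26 on the ketogenic diet (limma adjusted p = 0.148), where 0.155% of all genes were called and 0 of 10 members, and -0.27 ± 0.27 on MCT (adjusted p = 0.929), where 0.0% of genes were called (0, with 1008 at an unadjusted p under 0.05) and 0 of 10 members. Averaged over both diets it was -0.53 ± 0.19 (adjusted p = 0.122), where 2.9% of genes were called and again 0 of 10 members. Without the 3 discordant libraries Hes5 fell by 0.97 ± 0.20 on the log2 scale on the ketogenic diet (adjusted p = 0.00582) and by 0.59 ± 0.15 in the average (adjusted p = 0.0145), where 3.62% and 7.59% of genes were called. It was -0.20 ± 0.22 on MCT (adjusted p = 0.853), with 1.77% of genes called. Leaving out the library 3xTg K 1 alone gave -0.97 on the ketogenic diet (adjusted p = 0.0421) and -0.62 in the average (adjusted p = 0.0459). Over all 37 settings the adjusted p ranged from 0.00582 to 0.322 on the ketogenic diet and from 0.0145 to 0.236 in the average, and the difference stayed below 0 in each. The difference between the genotype effects on the 2 diets, ketogenic minus MCT, was -0.52 ± 0.38 (adjusted p = 1.0), so an effect of diet on the genotype difference was not detected.

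**Figure D3:**
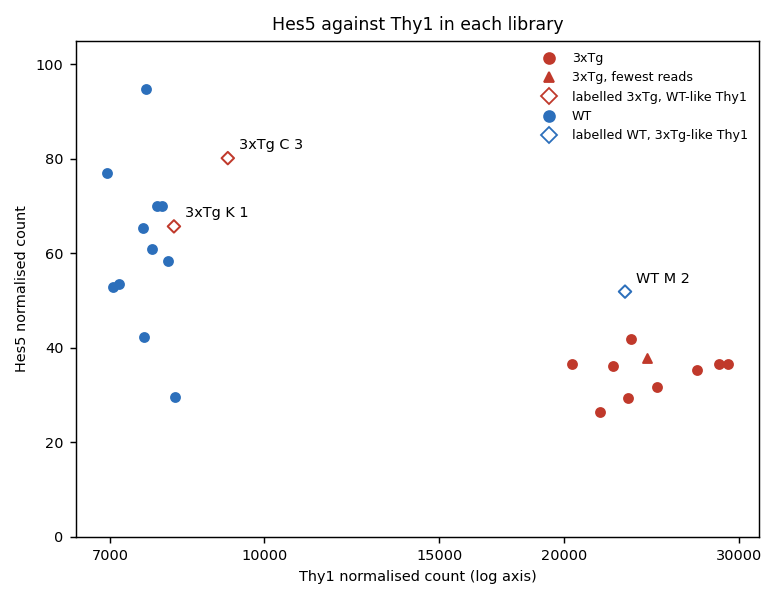
Hes5 normalised count of each library against its Thy1 normalised count (log axis), with the 3 discordant libraries named. The libraries labelled 3xTg K 1 (65.7) and 3xTg C 3 (80.1) lie within the WT range of Hes5 and near the WT libraries in Thy1, and WT M 2 (51.9) has 3xTg-like Thy1 with a Hes5 level above all 10 other high-Thy1 libraries.

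Hes5 was the least deeply counted of the 10 genes, with 7 reads in the library 3xTg K 2 and 28 to 98 in the others. Among the marker lists, its level moved most closely with the sum for radial glia and progenitors, the lineage in which Notch is known to act in the adult dentate gyrus. Across the 24 libraries its log2 level correlated with the summed level of 7 such markers at r = 0.824, a description over libraries that share their genotype groups. For endothelium r was 0.568, for astrocytes -0.470 and for oligodendrocytes -0.455. Hopx and Sox2, with means of 790 and 552 normalised counts over the 24 libraries, weigh most in the radial glia and progenitor sum. The sum was 1339.6 to 1662 normalised counts in 3xTg K against 1709.5 to 1802 in WT K, and 1284 to 1436 in 3xTg M against 1476 to 1772 in WT M; in each of these pairs the ranges did not overlap, while the control groups did, with 1471 to 1793.5 in 3xTg C and 1459.7 to 1851 in WT C. Abundant genes weigh most in such a sum: gene by gene, 4 of 6 were lower on the ketogenic diet (median -0.20), but 4 of 6 were higher on MCT (median 0.05). Within the list, Sox2, a stem-cell transcription factor gene also active in astrocytes, fell by 0.41 ± 0.08 in the average (adjusted p = 0.00538), while Hopx was at -0.18 ± 0.07 (adjusted p = 0.159), Nes at -0.06 ± 0.12, Riiad1 at 0.33 ± 0.15 and Mki67 at 0.17 ± 0.26. Vnn1 was at 0 in at least 1 library and did not pass the filter. Of the 6 markers that passed the filter, 4 were lower and 2 higher, with 1 called. Genes of dentate granule cells also moved, with 6 of 8 lower in the average. Of the 8, 5 were called, where 2.9% of all genes were called. Among them were Prox1 (-0.29, adjusted p = 0.0131) and C1ql2 (-1.19, adjusted p = 0.00339). The part of these cells in the Hes5 difference was not tested.

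Neither Hes1 nor Hey1 was called in any tested comparison. Hes1 averaged 185 ± 21.01 in 3xTg K and 199 ± 17.8 in WT K, 179 ± 23.9 in 3xTg M and 185 ± 24.1 in WT M, and 161 ± 30.4 in 3xTg C and 177 ± 38.1 in WT C. Hey1 averaged 566 ± 32.5 in 3xTg K and 586 ± 44.2 in WT K, 603 ± 29.8 in 3xTg M and 611 ± 8.93 in WT M, and 619 ± 26.6 in 3xTg C and 616 ± 49.1 in WT C. The averaged log2 differences were -0.08 ± 0.10 for Hes1 (95% interval -0.27 to 0.12, adjusted p = 0.738) and -0.03 ± 0.04 for Hey1 (-0.12 to 0.06, adjusted p = 0.753), against an interval of -0.92 to -0.15 for Hes5. Hey1, with 99 to 1019 reads per library, was the most tightly measured target.

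**Figure D4:**
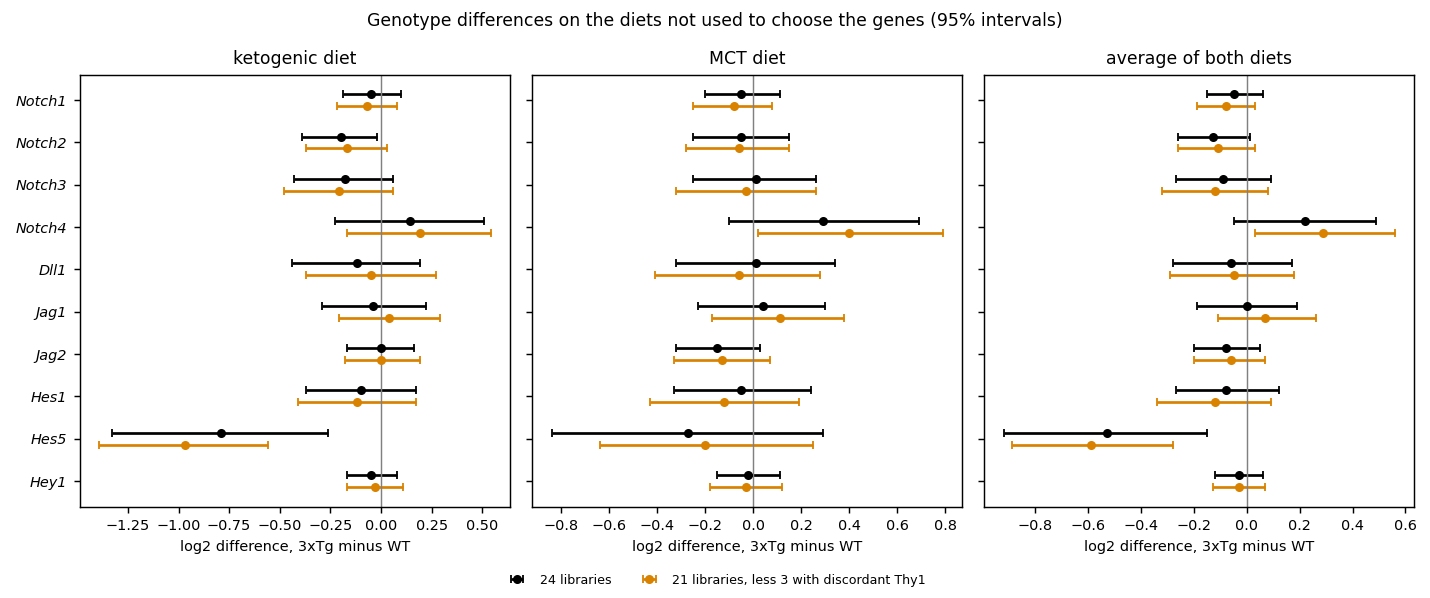
Log2 difference, 3xTg minus WT, with its 95% interval for the 10 genes on the ketogenic diet, on MCT and averaged over both, with all 24 libraries (black) and with 21 (orange). Hes5 lies furthest from 0 on the ketogenic diet (-0.79 and -0.97), and for Notch1 the intervals include 0 in all 3 panels.

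As a list, 9 of 10 members were lower in 3xTg averaged over the ketogenic and MCT diets (Jag1 among them at 0.00 after rounding), with a median log2 difference of -0.07, against 0.00 over all 14162 genes, of which 7093 were positive. With 21 libraries 8 of 10 were lower in the average. On the ketogenic diet 9 of 10 were lower with 24 libraries and 7 of 10 with 21; on MCT 6 of 10 were lower with 24 libraries and 8 of 10 with 21. The diet comparisons gave no called member. Ketogenic against control had 0 of 10 called in 3xTg and in WT, where 0.0% of genes were called in both. MCT against control had 0 of 10 in 3xTg (0.0% of genes) and in WT (0.00706%), and ketogenic against MCT had 0 of 10 in 3xTg (0.0%) and in WT (0.00706%). The test of whether the genotype difference changed between the ketogenic and MCT diets called 0 members and 0.0% of genes. At an unadjusted p under 0.05, 0 or 1 member passed in each of these diet comparisons and in the test of the change. Of all 14162 genes, 349 to 948 passed. In each comparison against control the member was Notch1, whose control-diet values had been used to select it. The largest differences between diets in size were those of Hes5 in WT, at 0.64 ± 0.27 for ketogenic minus MCT (unadjusted p = 0.027, adjusted p = 0.999) and -0.54 ± 0.27 for MCT minus control (adjusted p = 0.989).

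Correlations between members from mouse to mouse were of both signs. Over the 45 pairs, correlations of log2 deviations from the group means across 24 libraries had a median of 0.04, and 26 were positive. The highest was Notch1 with Notch3 at 0.542 and the lowest Notch2 with Hes5 at -0.617. The genes with deviations most like those of Notch1 were Nr4a1 (r = 0.760), Mospd3 (0.743), Ppp1r16a (0.734), Lrp1 (0.729) and Ier2 (0.724); by the log2 levels themselves they included Lrp1 (0.8288), Spen (0.785), Prr12 (0.779) and Hectd4 (0.778). For Hes5 they were 2310022B05Rik (0.854), Kcnv1 (0.837), Btbd8 (0.802), Napb (0.796) and Ipo5 (0.784). These values fell for 4 of the 5 genes to between 0.607 and 0.731 over the 21 libraries without the discordant ones, and Ipo5 was at 0.776. For 7 other members the closest gene was Auts2 for Notch2 (0.777), Catspere2 for Notch3 (0.729), Uevld for Dll1 (0.777), Fam227a for Jag1 (0.782), Scaf1 for Jag2 (0.850), St7 for Hes1 (0.720) and Mcat for Hey1 (0.785). All these were picked as the highest of many genes measured in the same libraries, so they are descriptions.

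Around the members, 46 other genes of the pathway were listed by role, and all 46 passed the filter. Aph1b alone was called, in the genotype difference averaged over the ketogenic and MCT diets, which is 1 of 46 beside 2.9% of all genes. Aph1b (chromosome 9, 66775202 to 66795490) encodes a scaffold subunit of gamma-secretase. It had 759, 799, 866, 788 and 896 normalised counts in 3xTg K, against 675, 693, 683 and 659 in WT K. In the MCT groups it had 889, 859, 812 and 809 in 3xTg M, against 731, 725, 823 and 711 in WT M. Every 3xTg K library lay above every WT K library, and on MCT the library WT M 3 (823) lay within the 3xTg range.

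Aph1b rose by 0.22 ± 0.05 in the average (adjusted p = 0.00908) and was called in all 37 settings, with adjusted p from 0.000665 to 0.0264. The difference was 0.27 ± 0.06 on the ketogenic diet (adjusted p = 0.0568, and 0.30 ± 0.06 with an adjusted p of 0.00227 with 21 libraries) and 0.17 ± 0.07 on MCT (adjusted p = 0.566). On the control diet, which does not enter this average, it had 869.8, 888 and 708 in 3xTg C, against 698, 700.4, 721 and 659 in WT C, and the lowest of the 3 is the library labelled 3xTg C 3. The neighbouring paralogue Aph1c, whose reads may be shared with Aph1b, was at 0.02 ± 0.09 (adjusted p = 0.931).

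Of the other secretase genes, Psen2, Ncstn, Psenen and Aph1a lay between -0.14 and 0.05 in the average and were not called; these genes and those named next were picked after their values were seen. With 21 libraries 5 pathway genes were called, 2 higher and 3 lower, beside 7.59% of all genes. Besides Aph1b they included Lfng, a Fringe glycosyltransferase that alters ligand choice, which rose by 0.51 ± 0.12 (adjusted p = 0.0121, against 0.41 ± 0.14 with 24 libraries); Maml3, a Mastermind coactivator, which fell by 0.51 ± 0.10 (adjusted p = 0.00182, against -0.39 ± 0.11 and adjusted p = 0.0550 with 24); and Nrarp, a target and feedback inhibitor of Notch, which fell by 0.19 ± 0.06 (adjusted p = 0.0396, against -0.13 with 24).

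By role, with 24 libraries and none called but Aph1b, the nuclear complex had 8 of 9 genes lower in 3xTg on MCT and 7 of 9 on the ketogenic diet, with medians of -0.08 and -0.05, and 9 of 9 lower in the average, with a median of -0.04. Genes of ligand and receptor trafficking and turnover were lower in 8 of 12 on MCT and 6 of 12 on the ketogenic diet. The glycosyltransferases were higher in 4 of 5 on MCT and 3 of 5 on the ketogenic diet. On the ketogenic diet the smallest p after that of Aph1b was that of Maml3, at -0.49 ± 0.15 (adjusted p = 0.131); with 21 libraries Maml3 fell by 0.56 ± 0.14 (adjusted p = 0.0196). On MCT the smallest p was that of Neurl1a, a ligand-activating ubiquitin ligase, at -0.17 ± 0.06 (adjusted p = 0.549). In the test of whether the genotype difference changed between these diets, the smallest p were those of Mib2, another such ligase, at 0.16 ± 0.09, and Neurl1a, at 0.14 ± 0.09, each with an adjusted p of 1.0.

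**Figure D5:**
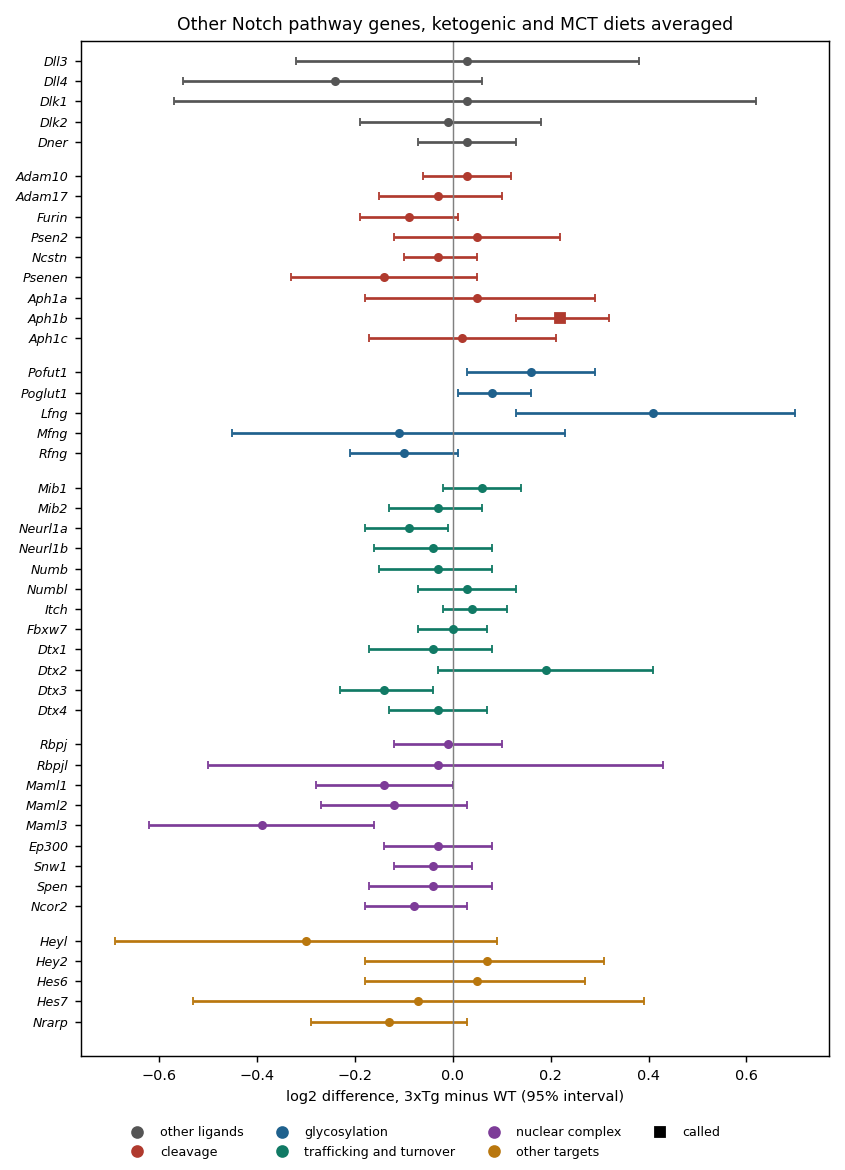
Log2 difference, 3xTg minus WT averaged over the ketogenic and MCT diets, with its 95% interval (24 libraries) for 45 of the 46 other pathway genes, coloured by role; the square marks the called gene. Aph1b (0.22) is called, Lfng (0.41) and Maml3 (-0.39) lie further out with wider intervals, and most genes lie near 0.

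In the control-diet comparison, given as description, 8 of 9 nuclear-complex genes and 10 of 12 trafficking genes were lower in 3xTg C than in WT C, and the median over the 46 genes was -0.08, against -0.01 over all genes. Among them were Neurl1b (-0.38 ± 0.09), the corepressor gene Spen (-0.35 ± 0.09), Maml1 (-0.38 ± 0.11), the acetyltransferase gene Ep300 (-0.26 ± 0.09) and the endothelial ligand gene Dll4 (-0.80 ± 0.23). These 5 were picked after their values were seen, and none was called with 24 libraries. With 21 libraries limma called 2 of 46 pathway genes there, beside 1.74% of all genes. Of these 1 was higher and 1 lower, the lower being Neurl1b (adjusted p = 0.0478). They come from the groups that the selection used and support nothing further. Spen and Ep300, like Notch1, lie in the longest class of genes. Neurl1b (6331 exonic bases), Maml1 (5528) and Dll4 (3852) lie in shorter classes. The part of length in these differences was not tested.

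No diet comparison called a pathway gene. In 3xTg, ketogenic against control gave the smallest p for Neurl1b (0.30 ± 0.09) and Heyl, a Hey-family repressor gene (-0.74 ± 0.28), each with an adjusted p of 0.724; MCT against control gave it for Neurl1b (0.26 ± 0.09) and Numbl (0.16 ± 0.07), each at 0.999. In WT, ketogenic against control gave Maml1 (-0.28 ± 0.10) and Maml2 (-0.23 ± 0.10), each at 0.983, and MCT against control gave Maml1 (-0.24 ± 0.10) and Spen (-0.16 ± 0.09), each at 0.989. Ketogenic against MCT gave Mfng (-0.46 ± 0.23) and Furin (-0.14 ± 0.07) in 3xTg, and Aph1b (-0.14 ± 0.07) and Lfng (-0.39 ± 0.20) in WT, all at 0.999. The Lfng value became -0.18 without the library labelled WT M 2, which held 256 normalised counts.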

How the data were processed

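Hippocampal poly(A) RNA of 24 mice was sequenced. Per the labels' protocols, each library used 500 ng of total RNA and 11 PCR cycles. The GRCm38 genome build and the tools STAR and Trimmomatic are named in the submitters' processing notes. The gene counter, its strand setting, the annotation and the tool that scaled the counts were not given in the sources used here. Without the strand setting, reads of members and of genes overlapping them on the opposite strand (such as 0610009E02Rik at Notch1 and Gm20421 at Hes5) cannot be told apart.

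The authors deposited signal values, that is normalised counts for 21793 genes. Divided by 1 step per library, 100% of the values came out whole within 0.01, which gave the reads back. Log2(value + 1) was fitted with limma 3.58.1 (R 4.3.3; trended prior, 6 group means, two-sided) over the 14162 genes with at least 10 normalised counts in at least 3 libraries. P-values were Benjamini-Hochberg adjusted over all of them, and called means an adjusted p under 0.05. A fold on this scale understates changes of low genes. The fit was tested on simulated data. Each library is described as 1 hippocampus; p-values measure the spread between these samples.

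Members and lists were chosen with earlier results of these data known. All members are named. Some values of other genes are not reported here. Other pathway genes are named by rule where called with 24 libraries, or else the 2 with the smallest p per comparison. The genes most like a member are the 5 with the highest r among kept genes with a mean of at least 32. Positions and exonic lengths come from a GENCODE annotation on GRCm38, matched by symbol for all 10 members. Replicate numbers were shared between groups, and the labels do not say that they pair the mice. Alternatives were TMM factors, quantile normalisation, pseudocounts of 0.5 and 5, no filter, a mean of at least 50, the compared groups alone, a replicate block, edgeR 4.0.16 and DESeq2 1.42.0 on the recovered reads, array weights, 21 libraries without those with discordant Thy1, 23 without the shallowest, and each library left out.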

Additional observations from a re-analysis of the deposited data

Results flagged for a closer look

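Within groups of 4 or 5 libraries, 3 of 50 gene-by-group sets had a library far from the others, where chance gives about 5% of sets. Hes5 in 3xTg K had 65.7 normalised counts in the library labelled 3xTg K 1, against 29.2 to 37.8 in the other 4; this is 1 of the libraries with WT-like Thy1. Jag2 in WT M had 305 in the library WT M 3, the library that was also lowest for Hes5 among WT libraries (29.5). Hey1 in WT C had 543 in the library WT C 1.

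Notch1 differed from control in opposite directions in the genotypes on the ketogenic and MCT diets, with none of the 4 differences called. With the ketogenic diet the log2 difference was 0.20 in 3xTg and -0.17 in WT, and with MCT it was 0.19 in 3xTg and -0.18 in WT. Every 3xTg library on either of these diets lay above the 3xTg C mean, and every WT library on either of them below the WT C mean. The difference between the genotypes was not tested, since both changes share the control libraries in which Notch1 was selected.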

How the results depend on the processing

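The counts of called members and of called pathway genes in 10 comparisons were recomputed under 37 settings. No called value changed sign. In the ketogenic genotype comparison the count of members was 1 with 21 libraries (Hes5) and 0 to 1 when single libraries were left out. In the average of the ketogenic and MCT diets it was 1 with 21 libraries, 1 with array weights (Hes5 at -0.61, adjusted p = 0.0423) and 0 to 1 with single libraries left out. The call for Hes5 appeared there without 3xTg K replicate 1. The count of pathway genes on the ketogenic diet was 1 with DESeq2, 2 with 21 libraries, 1 with array weights and 0 to 1 with single libraries left out (1 without 3xTg C replicate 3, 3xTg K replicate 1 or WT M replicate 2), and in the average it was 3 with DESeq2, 5 with 21 libraries, 3 with array weights and 1 to 4 with single libraries left out, with 4 without WT M replicate 2, 3 without 3xTg K replicate 1, and more than 1 also without 3xTg C replicate 1, 3xTg C replicate 3 or 3xTg M replicate 3. All other counts of members and pathway genes kept their value or stayed within 1.5 times. With the replicate block, 0 members were called in each comparison and 1 pathway gene in the average, as without it. Same-numbered libraries had a median correlation of -0.000279 over 55 pairs (range -0.256 to 0.248), and 11 of these pairs were above 0.1. Of 24 libraries, 6 correlated best with their own number. These correlations showed no general pairing by number, but cannot exclude a batch that some libraries shared. The cause of these shifts was not tested. The number of all genes called moved more. In the average it was 410, 1072 with 21 libraries, 405 with edgeR on the recovered reads, 597 with DESeq2, 272 without the shallowest library and 171 to 774 with single libraries left out. On the ketogenic diet it was 22, 511 with 21 libraries, 5 with edgeR, 150 with DESeq2 and 0 to 325, and on MCT 0, 0 with edgeR, 28 with DESeq2, 250 with 21 libraries and 0 to 97. Depth limits Hes5 in the library 3xTg K 2, with 7 reads, and groups of 3 to 5 mice limit every comparison.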
